A study of Homo sapiens with 19 samples.

Results

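The genes described here encode the extracellular matrix made by A549, an epithelial cell line from a human lung adenocarcinoma that can be grown as a flat sheet or as spheroids. The set holds 41 of the 62700 genes counted: 19 collagen chains, 8 laminin chains and 14 other matrix proteins, which are structural glycoproteins, proteoglycans and enzymes that cross-link the matrix. They were chosen by name, with earlier results of these data known. All 41 gene IDs were found in every one of the 19 libraries. A549 spheroids (8 libraries) and A549 monolayers (8 libraries) were lysed before nanostraw electroporation (NEE), right after it, 2 h after it and 24 h after it, with 2 biological replicates of each culture at each time. NEE draws small amounts of cytosol out of living cells through hollow straws. Apart from these lysates there was the RNA obtained in that way from A549 monolayers, as 3 technical replicates; these are repeats of one procedure and not separate cultures. All groups share the same cell line, with no drug, transgene or mutation named as a treatment, and each lysate represents one line only. Different kits were used for the lysates (total RNA) and for the sampled RNA (clean-up of small amounts), so that the sampling and the kit cannot be told apart. Libraries of both kinds were made with Smart-Seq2.

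Type IV collagens and laminins form the 2 networks of the basement membrane, the sheet on which epithelial cells rest. Laminins are trimers of an alpha, a beta and a gamma chain; type IV collagens are trimers of alpha chains encoded by 3 pairs of neighbouring genes, each pair read in opposite directions from a common promoter region. Nidogens and the proteoglycan perlecan tie the networks together, whereas fibronectin and the fibrillar collagens build the fibres of the interstitial matrix. A549 cells model alveolar epithelium, which in the lung lies directly on such a membrane.

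Library totals lay between 13626934 and 24571083 counts, so that 3 counts, the limit that a count of 0 allows, corresponded to between 0.1221 and 0.2202 CPM (counts per 1000000 counts of a library). Such limits cover counting error only. Monolayers before NEE replicate 1 stood apart from the other 15 lysates: its 15 markers of natural killer and T cells summed to 763 CPM, against 22.7 to 66.2 CPM in the other lysates, and its 9 epithelial markers to 6482 CPM, against 12923 to 26453 CPM. The part of these markers in any result below was not tested, and each main result is also given without this library. Defining epithelial markers were present in every library, with 7 to 9 of the 9 at 1 CPM or more in lysates. The 12 fibroblast and mural markers summed to 11.2 to 23.2 CPM in spheroids and 20.8 to 42.0 CPM in monolayers. In bulk RNA, fewer cells of a type and less RNA per cell cannot be told apart. Nothing says that the replicates came from independent thaws, so p-values measure the spread between these samples, which may be technical.

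Matrix RNA made up a small share of each library, and 3 glycoproteins and enzymes held most of it. The 41 genes summed to 3876 to 7372 CPM in spheroids and 2906 to 7908 CPM in monolayers (2906 to 4174 CPM without monolayers before NEE replicate 1). Collagens gave 324 to 669 CPM in spheroids and 396 to 1023 CPM in monolayers, laminins 768 to 1169 CPM and 633 to 854 CPM, and the other matrix proteins 2749 to 5662 CPM and 1874 to 6032 CPM. Divided by exon length, the mean level over the 15 other lysates was highest for TGFBI, an adhesion protein induced by TGF-beta, at 124 CPM per kilobase. LOXL2, a lysyl oxidase that cross-links collagen, followed at 111 CPM per kilobase and fibronectin (FN1) at 92.5 CPM per kilobase. Among laminins the beta chains LAMB1 and LAMB2 led with 44.3 and 29.6 CPM per kilobase. Among collagens the fibrillar chain COL5A2 led with 23.5 CPM per kilobase, ahead of the type IV chain COL4A6 at 6.04 CPM per kilobase. COL1A1, the main chain of the commonest fibrillar collagen, stood at 0.456 CPM per kilobase, 30th in the order.

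COL1A2 and COL3A1, the fibrillar collagens found beside COL1A1 in connective tissue, were at or near 0. COL1A2 was at 0 CPM in all 8 monolayer libraries and all 3 NEE-sampled libraries, and reached 0.435 CPM at most in spheroids. COL3A1 reached 0.788 CPM in 1 spheroid library and 0.2 CPM or less in the other lysates. COL6A3, a chain of type VI collagen, reached 0.366 CPM and the laminin alpha chain LAMA1 0.105 CPM. These 4 genes did not pass the filter on low counts, and the 37 others were tested in each fit. The plot of all 41 genes by library shows this order and the libraries that depart from it.

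**Figure D1:**
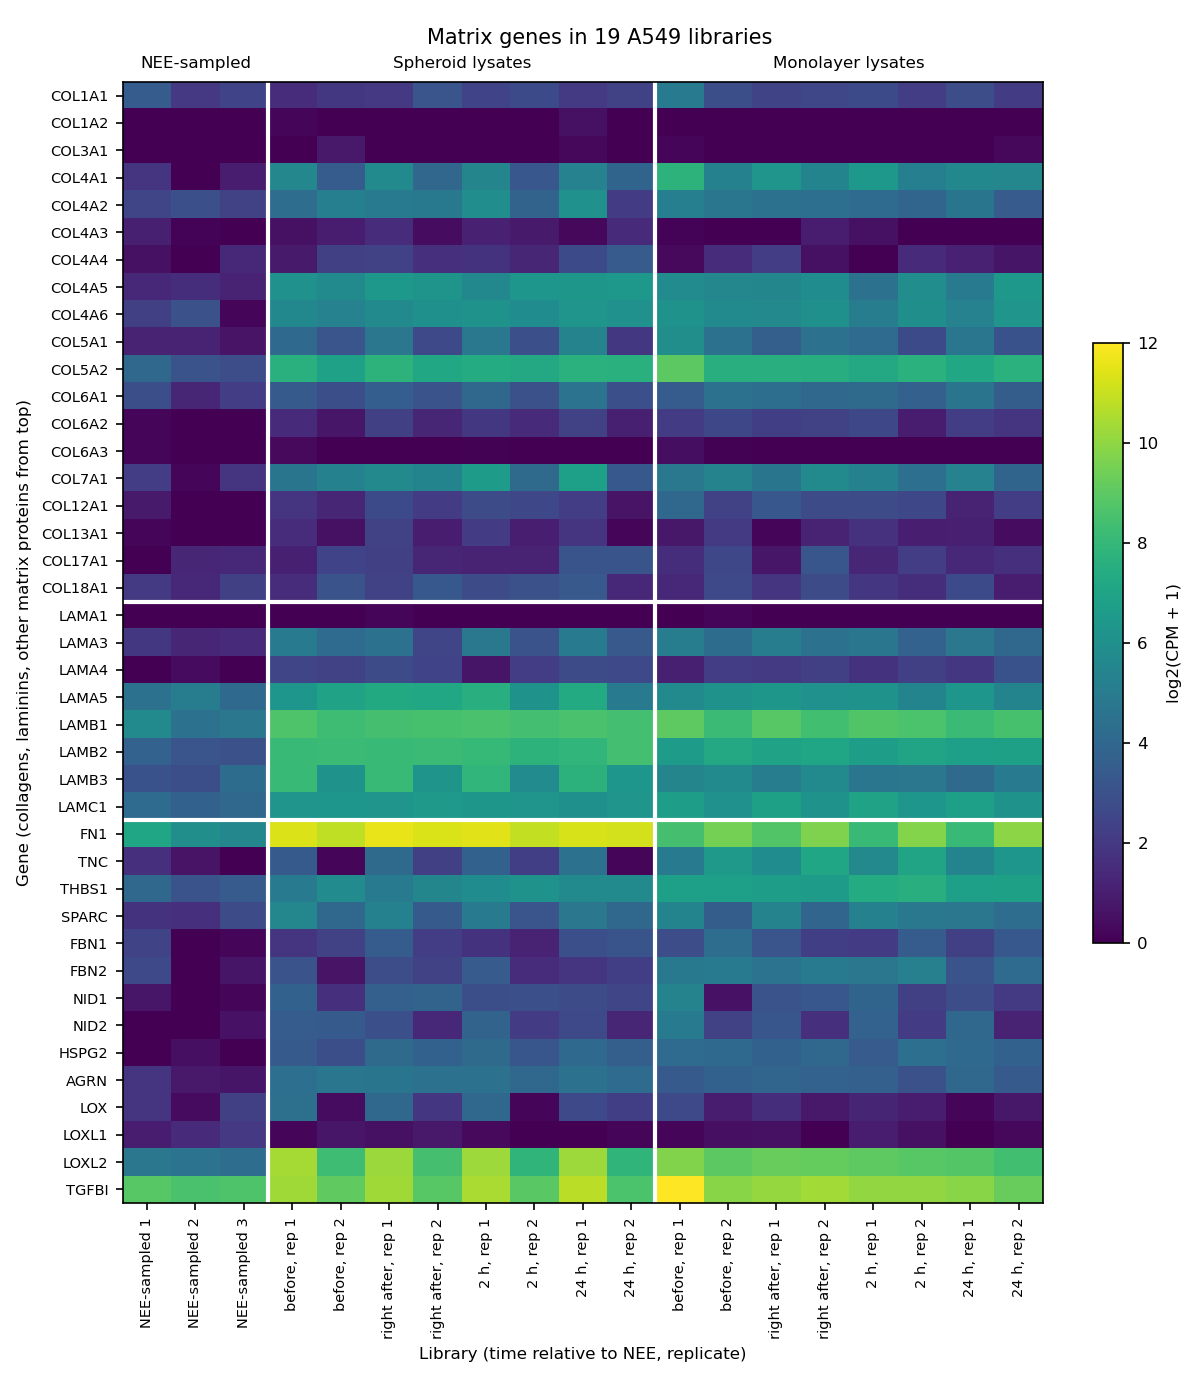
Levels of the 41 matrix genes (rows, in blocks of collagens, laminins and other matrix proteins) in each of the 19 libraries (columns, NEE-sampled RNA, then spheroids, then monolayers) as log2(CPM + 1), with yellow for high and dark purple for low levels. TGFBI, LOXL2 and FN1 are bright in the lysates, COL1A2, COL3A1, COL6A3 and LAMA1 stay dark, and the 3 NEE-sampled libraries are darker in most rows.

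Spheroids held more RNA for the laminin beta chains LAMB2 and LAMB3, fibronectin and agrin than monolayers, and less for thrombospondin 1, tenascin C and fibrillin 2. Over the 4 times, 9 of 37 tested matrix genes passed the test (6 higher, 3 lower) by edgeR's quasi-likelihood test with Benjamini-Hochberg adjustment over 17822 genes, at an adjusted p under 0.05. Of all genes tested, 19.9% were called in this comparison, 10% higher and 9.84% lower, so the 9 of 37 stood near the share of all genes. The median log2 fold change was -0.11 for the 37 genes and -0.02 for all genes. By class, 3 of 7 laminins, 1 of 16 collagens and 5 of 14 other matrix proteins were called. Without monolayers before NEE replicate 1, 7 of 38 were called, when 15.2% of all genes were, and LAMA5 and TNC lost their calls. The median of the matrix genes was then 0.15 (24 of 38 above 0), against 0.02 for all genes, and 7 genes that passed no test (COL17A1, COL5A1, COL5A2, NID1, NID2, SPARC and TGFBI) changed sign, NID1 most, with a log2 fold change of 1.13 (edgeR adjusted p = 0.0761).

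LAMB2, the beta chain of laminins with the LAMA5 and LAMC1 chains in mature basement membranes, lies at chr3:49121114-49133118 on the minus strand of GRCh38. It had 216, 276 and 344 CPM (lowest, median and highest) in spheroids, against 95.1, 117 and 148 CPM in monolayers, and the groups did not overlap. Its mean was 273 ± 38.4 CPM in spheroids and 119.5 ± 17.7 CPM in monolayers (SD, n = 8 each), and its log2 fold change was 1.28 (SE 0.13, edgeR adjusted p = 4.45e-05). LAMB3, the beta chain of the epidermal type of laminin, had 54.1, 143 and 283 CPM in spheroids and 16.8, 31.0 and 53.1 CPM in monolayers, again without overlap. Its log2 fold change was 2.36 (SE 0.43, edgeR adjusted p = 0.00265), and its values in spheroids fell into a high and a low set, one for each replicate number. LAMA5, the alpha chain of most adult basement membranes, had 28.7, 129.9 and 183 CPM in spheroids and 41.1, 69.0 and 79.9 CPM in monolayers. Those groups overlapped through 3 spheroid libraries, and the log2 fold change of 0.97 (edgeR adjusted p = 0.0481) lost its call in 14 of 16 fits that each left out a library.

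None of the other laminin chains passed the test between cultures. LAMB1 had 308, 359 and 408 CPM in spheroids and 288, 370.1 and 526 CPM in monolayers, a log2 fold change of 0 (SE 0.14). LAMC1, the gamma chain shared by most laminins, had a log2 fold change of -0.16, LAMA3 of -0.25 and LAMA4 of 0.34. Of the 3 beta chains, LAMB2 and LAMB3 thus passed the test and LAMB1 did not, and the difference between them was not tested.

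Fibronectin, the dimeric glycoprotein that cells assemble into fibrils through integrins, showed the highest level per kilobase of all 41 genes in spheroids, at 142 CPM per kilobase, against 34.1 CPM per kilobase in monolayers. FN1 (chr2:215360440-215436172, minus strand) had 1831, 2533 and 3099.6 CPM in spheroids, against 270.1, 573 and 962 CPM in monolayers. Every spheroid library lay above every monolayer library, and the log2 fold change was 2.13 (SE 0.32, edgeR adjusted p = 0.000853). AGRN, the heparan sulfate proteoglycan agrin, had 15.5, 21.6 and 25.0 CPM in spheroids and 6.98, 12 and 14.9 CPM in monolayers. It did not overlap either, and its log2 fold change was 0.97 (SE 0.18, edgeR adjusted p = 0.00243). In all, 4 of the 41 genes (LAMB2, LAMB3, FN1 and AGRN) had every spheroid library above every monolayer library; 2.81% of the genes at 1 CPM or more in 2 libraries did so.

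Thrombospondin 1, fibrillin 2 and tenascin C, which are secreted matrix glycoproteins, were lower in spheroids. THBS1, the matricellular protein thrombospondin 1 (chr15:39581079-39599466, plus strand), had 28.5, 52.0 and 68.2 CPM in spheroids, against 94.5, 109.7 and 183 CPM in monolayers. The groups did not overlap, and the log2 fold change was -1.27 (SE 0.14, edgeR adjusted p = 5.58e-05). Of its exon bases, 7.58% overlap genes on the other strand, and whether counting used strand is not given in the sources used here. FBN2, a fibrillin of elastic microfibrils, had 0.563, 3.94 and 9.94 CPM in spheroids and 7.36, 27.0 and 36.4 CPM in monolayers. Its log2 fold change was -2.30 (SE 0.46, edgeR adjusted p = 0.00343), and the groups overlapped through 1 monolayer library. TNC, the adhesion-modulating tenascin C, had 0.113, 6.75 and 21.2 CPM in spheroids and 30.9, 67.6 and 136 CPM in monolayers. Every spheroid library lay below, as it did for THBS1, so that 2 of 41 genes had every spheroid library below every monolayer library, against 5.09% of the genes at 1 CPM or more in 2 libraries. The log2 fold change of TNC was -3.10 (edgeR adjusted p = 0.0214), and its call was lost in 13 of 16 leave-one-out fits, with an adjusted p of 0.058 without monolayers before NEE replicate 1.

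The calls for AGRN, FBN2, FN1, LAMB2, LAMB3 and THBS1 were kept in all 16 fits that left out a library. Over the 3 times after NEE alone the same 6 genes were called, when 12.3% of all genes were (12.6% without monolayers before NEE replicate 1, again with 6 matrix genes). Before NEE alone, with 2 libraries on each side, LAMB2 (log2 fold change 1.35, edgeR adjusted p = 0.0281) and THBS1 (-1.25, edgeR adjusted p = 0.0459) were called, when 1.3% of all genes were. Both calls were lost without monolayers before NEE replicate 1, which leaves 1 monolayer library before NEE. The log2 fold change was then 1.06 for LAMB2 and -1.26 for THBS1. With all libraries, DESeq2 called 6 matrix genes before NEE, and its share of all genes is not given here. The 8 myeloid markers summed to 33.0 to 97.9 CPM in spheroids and 12.7 to 65.1 CPM in monolayers, which overlapped. Their part in the differences between cultures was not tested.

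**Figure D2:**
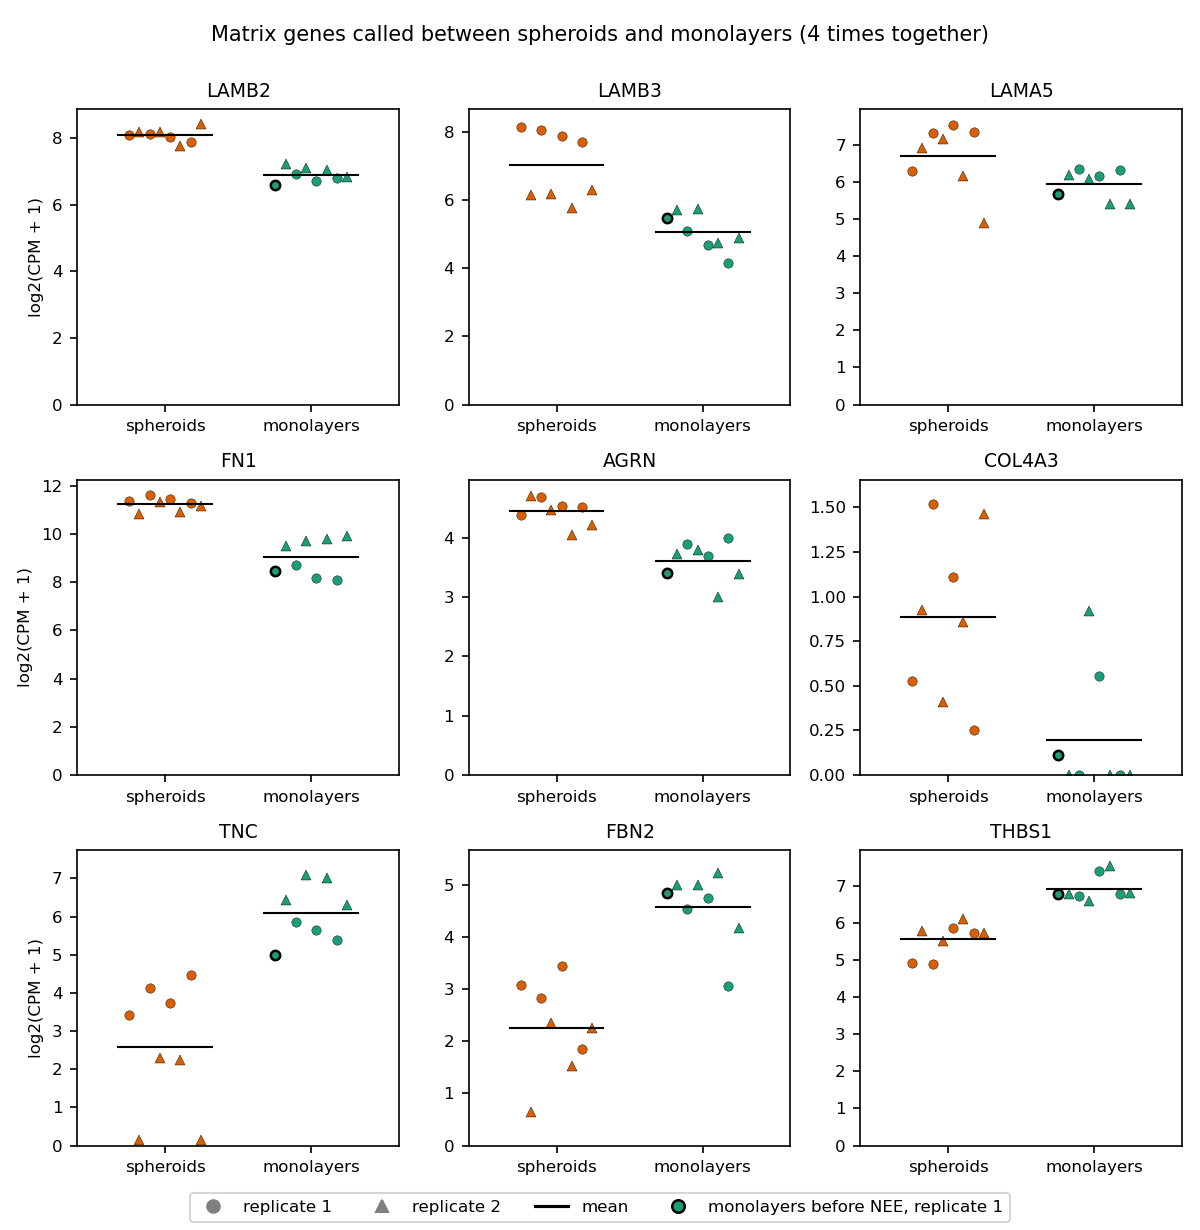
log2(CPM + 1) of the 9 matrix genes called between spheroids (left in each panel) and monolayers (right), with 1 point for each of the 8 libraries of a culture, its shape giving the replicate number, and the mean as a line. LAMB2, LAMB3, FN1 and AGRN lie above and TNC and THBS1 below in every spheroid library, whereas LAMA5, COL4A3 and FBN2 overlap.

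The promoters of LAMB2, FN1 and THBS1, whose calls held in every fit of the 4 times and of the 3 times after NEE, are printed because 2 of these genes rose and 1 fell. They run from 250 bases before to 50 bases after the RefSeq start (GRCh38.p14), in the gene's own direction, and capitals mark matches on either strand to the GC box GGGCGG, the CCAAT box, the cAMP response element TGACGTCA or the TEAD site CATTCC. The windows are chr3:49133001-49133300 (minus strand) for LAMB2, chr2:215436019-215436318 (minus strand) for FN1 and chr15:39580829-39581128 (plus strand) for THBS1.
LAMB2: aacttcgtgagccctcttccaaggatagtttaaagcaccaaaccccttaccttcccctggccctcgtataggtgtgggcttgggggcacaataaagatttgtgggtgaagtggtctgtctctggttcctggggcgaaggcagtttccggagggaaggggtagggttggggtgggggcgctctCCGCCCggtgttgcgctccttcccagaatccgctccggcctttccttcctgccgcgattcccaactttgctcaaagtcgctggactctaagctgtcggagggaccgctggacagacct
FN1: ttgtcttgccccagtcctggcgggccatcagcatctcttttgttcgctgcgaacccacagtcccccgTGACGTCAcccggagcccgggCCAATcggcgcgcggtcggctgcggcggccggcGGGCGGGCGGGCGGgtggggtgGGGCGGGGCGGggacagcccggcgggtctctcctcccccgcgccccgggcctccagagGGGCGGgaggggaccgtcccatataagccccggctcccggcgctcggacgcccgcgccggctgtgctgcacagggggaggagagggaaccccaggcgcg
THBS1: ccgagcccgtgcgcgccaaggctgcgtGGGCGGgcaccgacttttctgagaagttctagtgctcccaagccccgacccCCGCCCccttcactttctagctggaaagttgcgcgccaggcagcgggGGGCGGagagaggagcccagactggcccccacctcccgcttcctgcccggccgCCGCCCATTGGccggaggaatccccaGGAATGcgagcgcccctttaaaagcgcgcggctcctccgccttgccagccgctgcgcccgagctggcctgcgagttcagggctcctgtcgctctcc
All 3 windows hold a GC box; FN1 has 6 matches and the only cAMP response element among the matrix genes, and THBS1 has 4. RefSeq windows were found for 33 of the 41 genes, and 69.7% of those hold the GC box, against 44.6% of all 27305 promoters of the same length. The CCAAT box was in 33.3% of the matrix promoters and 35.7% of all, the TATA box TATAAA in 12.1% and 12%, the TEAD site in 12.1% and 14.0%, the AP-1 site TGANTCA in 3.03% (LAMA3) and 7.76%, the cAMP response element in 3.03% and 1.98%, and the CArG box in none and 1.29%. A match describes these letters only.

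Type IV collagen, the network-forming collagen of basement membranes, is encoded by 3 head-to-head gene pairs, whose genes are compared here within each pair. COL4A1 (chr13:110148963-110307233, minus strand) and COL4A2 (chr13:110305812-110513209, plus strand) have RefSeq starts 127 bases apart. The 300-base windows of these 2 genes share 226 bases, and the COL4A2 window, chr13:110307034-110307333 on the plus strand of GRCh38.p14, is printed because both genes are read from it, with the same capitals as above.
COL4A2: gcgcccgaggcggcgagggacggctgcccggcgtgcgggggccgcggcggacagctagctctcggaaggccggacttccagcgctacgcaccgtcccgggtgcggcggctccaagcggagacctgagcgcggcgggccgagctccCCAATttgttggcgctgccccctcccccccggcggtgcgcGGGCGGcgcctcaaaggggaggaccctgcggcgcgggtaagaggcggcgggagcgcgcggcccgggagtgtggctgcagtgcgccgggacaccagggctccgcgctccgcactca
COL4A1 had 8.42, 26.5 and 52.1 CPM in spheroids and 35.3, 46.9 and 213 CPM in monolayers. COL4A2 had 3.35, 29.3 and 65.4 CPM in spheroids and 9.91, 20.6 and 35.3 CPM in monolayers. The CPM of COL4A1 divided by that of COL4A2 was 0.299, 0.69 and 4.0 in spheroids (lowest, median and highest) and 1.51, 3.01 and 6.03 in monolayers, which overlapped. Neither gene passed the test between cultures: the log2 fold change was -1.16 for COL4A1 (SE 0.51, edgeR adjusted p = 0.135) and 0.72 for COL4A2 (SE 0.48, edgeR adjusted p = 0.333). With the replicate number as a block, COL4A1 was called lower in spheroids, at -1.37 (edgeR adjusted p = 0.00152). Without monolayers before NEE replicate 1 its log2 fold change was -0.73 (edgeR adjusted p = 0.424).

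COL4A3 and COL4A4, chains of the kidney and lung type of the network, were the weakest pair. COL4A3 had 0.193, 0.856 and 1.86 CPM in spheroids, against 0, 0 and 0.894 CPM in monolayers, where 5 libraries were at 0. The fitted log2 value of 3.67 (SE 1.14, edgeR adjusted p = 0.0384) rests on values near the 3-count limit, and the call was lost in 10 of 16 leave-one-out fits. COL4A4 had a log2 fold change of 1.60 (edgeR adjusted p = 0.129). COL4A5 and COL4A6, the X-linked pair, were the highest type IV chains per kilobase, at 5.06 and 6.04 CPM per kilobase over the 15 other lysates. COL4A5 had 48.1, 75.6 and 82.8 CPM in spheroids and 21.3, 50.4 and 82.3 CPM in monolayers; COL4A6 had 39.6, 60.1 and 76.6 CPM and 32.1, 57.3 and 74.8 CPM. The COL4A5 to COL4A6 ratio had a median of 1.26 in spheroids (0.71 to 1.64) and 0.884 in monolayers (0.662 to 1.1). COL4A5 was called higher in spheroids with the replicate block (0.65, edgeR adjusted p = 0.0472, against 0.60 and 0.0894 without it).

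**Figure D3:**
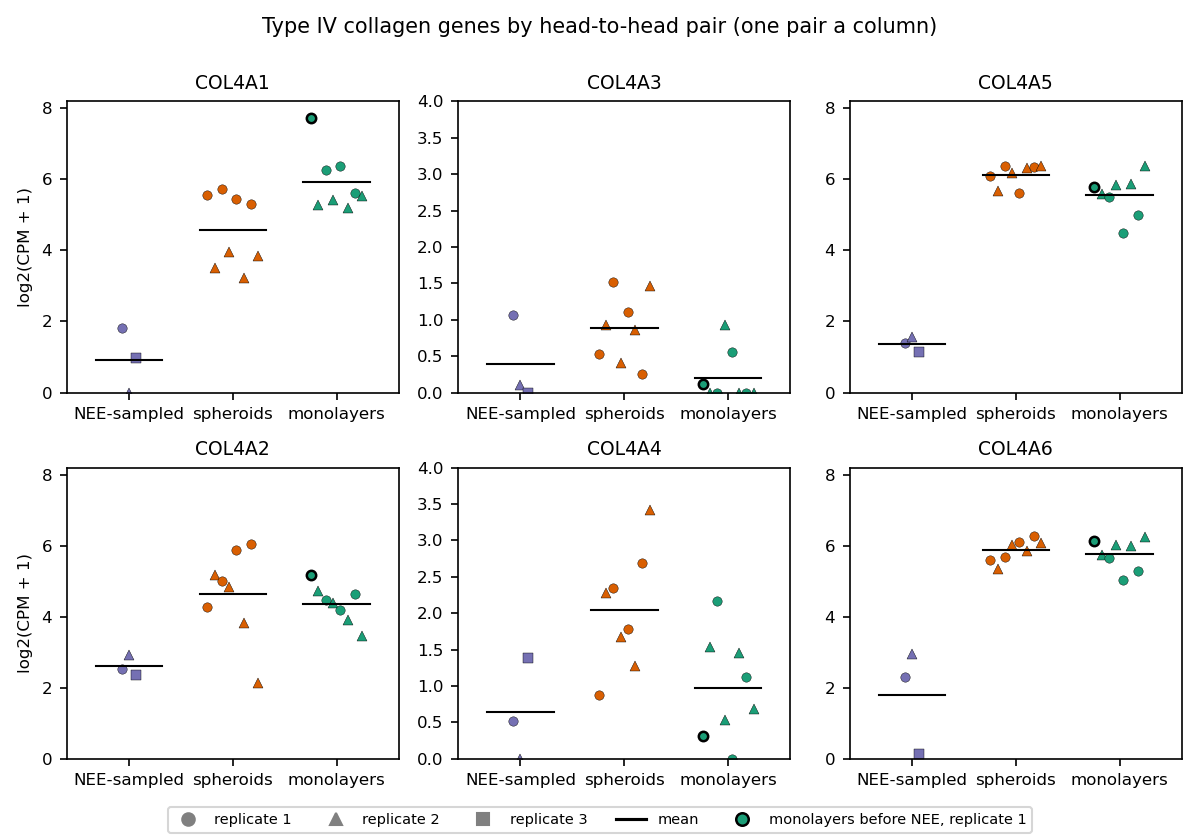
log2(CPM + 1) of the 6 type IV collagen genes, with the 2 genes of a pair in 1 column and the same axis, for NEE-sampled RNA (3 libraries), spheroids and monolayers (8 libraries each). Points are libraries, shapes give the replicate number and lines the mean. Every replicate 1 value of COL4A1 lies above every replicate 2 value in spheroids, and also in monolayers. COL4A5 and COL4A6 look alike in the lysates, where their ratio lay between 0.662 and 1.64.

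Of the remaining collagens, none was called between cultures. The fibrillar chain COL5A2 had 114, 179.5 and 216 CPM in spheroids and 147, 186 and 502 CPM in monolayers, a log2 fold change of -0.20, and its partner COL5A1 one of -0.12. The microfibrillar chains COL6A1 and COL6A2 had -0.53 and -0.65, the anchoring fibril collagen COL7A1 0.67, the fibril-associated COL12A1 -0.71, the transmembrane collagens COL13A1 and COL17A1 0.72 and 0.08, and the basement membrane collagen COL18A1 0.91. Among the other matrix proteins, LOX, the founding lysyl oxidase, missed the threshold (log2 fold change 2.77, SE 0.91, edgeR adjusted p = 0.0511). LOXL2 had 230.4, 753 and 1343 CPM in spheroids and 329, 511 and 834 CPM in monolayers, and TGFBI 389, 881 and 1739.7 CPM and 592, 1059 and 4528 CPM. The collagen-binding SPARC had a log2 fold change of -0.11, FBN1 of -0.75, the nidogens NID1 and NID2 of -0.18 and -0.46, perlecan (HSPG2) of -0.22 and LOXL1 of -0.27.

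Genes that fold and modify collagen were mostly higher where they were called in spheroids. Of 29 tested collagen-processing genes, 13 were higher and 1 lower, led by the lysyl hydroxylase PLOD1 (log2 fold change 1.07, edgeR adjusted p = 4.5e-05), the prolyl hydroxylase subunit P4HB (0.85, edgeR adjusted p = 9.74e-05) and CRTAP (0.68, edgeR adjusted p = 0.000591). Of 23 TGF-beta pathway genes, 5 were higher and 3 lower, with the receptor ACVR1B at 0.77, the pseudoreceptor BAMBI at 1.36 and the corepressor TGIF1 at 0.45. Of 12 matrix receptors other than integrins, the collagen receptor DDR1 was called, at 1.30 (edgeR adjusted p = 0.000256). Of 32 matrix genes outside the set, 3 were called: FBLN5 and EFEMP2 higher, at 1.52 and 2.92, and EFEMP1 lower, at -1.47. These counts stand beside 10% of all genes called higher and 9.84% called lower, and the medians were 0.47, 0.10, 0 and 0.08 in the order given, against -0.02 for all genes. Without monolayers before NEE replicate 1, edgeR called 11 collagen-processing genes higher and 1 lower, 3 TGF-beta pathway genes higher and 1 lower, 1 receptor higher, and 4 of 34 matrix genes outside the set higher with none lower.

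No matrix gene tested was called after NEE in either culture in the main fit. In monolayers, 0 of 37 were called by edgeR right after NEE, 2 h after or 24 h after, each over before NEE, when 0%, 0.00561% and 0% of all genes were; in spheroids, 0 of 37 were called at those times, at 0%, 0.0112% and 0% of all genes. At 2 h and 24 h over right after NEE, 0 of 37 were called in monolayers (0.00561% and 0% of all genes) and in spheroids (0.0112% and 0%). The difference between cultures in each change from before NEE gave 0 of 37, with 0% of all genes at each time. DESeq2 also called 0 matrix genes in all 13 of these comparisons. With no filter on low counts, edgeR called TGFBI lower in monolayers right after, 2 h and 24 h after NEE over before, and COL5A1 lower at 2 h. It also called TGFBI for the difference between cultures at 24 h. Both genes had their highest lysate value in monolayers before NEE replicate 1, at 4528 CPM for TGFBI and 59.9 CPM for COL5A1. The part of that library in these calls was not tested. In simulated counts for monolayers 24 h after NEE over before, edgeR recovered 2.94% of the genes changed by a log2 of 1. It recovered 28.8% at a log2 change of 2 and 60.6% at 4. A missing call thus does not show that a gene was unchanged. At an unadjusted p under 0.05, edgeR counted 2, 3 and 3 matrix genes in monolayers right after, 2 h after and 24 h after NEE over before. It counted 0 at each time in spheroids, and 1, 1 and 2 for the difference. Of all 17822 genes tested, 401, 605 and 788 did so in monolayers, 359, 604 and 445 in spheroids, and 516, 555 and 628 for the difference.

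In monolayers, 1 library before NEE stood apart in several of the matrix genes nearest to a call. COL1A1 in monolayers had 4.52 and 4.92 CPM right after NEE, 5.53 and 3.46 CPM at 2 h and 6.13 and 3.45 CPM at 24 h, against 28.4 and 6.46 CPM before NEE (replicates 1 and 2). One before-NEE library was high, and the other was close to the later ones. COL5A2 in monolayers had 187 and 178 CPM right after NEE, 148 and 203 CPM at 2 h and 147 and 201 CPM at 24 h, against 502 and 185 CPM before NEE, with the same library high. COL12A1 had 1.23 and 3.5 CPM at 24 h, against 15.7 and 4.05 CPM before NEE. THBS1, which responds early to serum and stress, had 168 and 183 CPM in monolayers at 2 h, against 109 and 109.7 CPM before NEE, and the replicates did not overlap; its log2 change was 0.74 (unadjusted p = 0.0181 by edgeR, adjusted p = 1). In spheroids THBS1 had 56.9 and 68.2 CPM at 2 h and 28.5 and 44.7 CPM right after NEE, a log2 change of 0.79 at 2 h over right after (unadjusted p = 0.0132 by edgeR, adjusted p = 1). Among the other spheroid genes nearest to a call, HSPG2 had 17.0 and 12.4 CPM right after NEE, against 9.59 and 6.36 CPM before NEE, and COL4A6 had 76.6 and 66.7 CPM at 24 h, against 47.0 and 39.6 CPM before NEE. Neither pair of values overlapped, but neither passed the test. The median log2 change of the 37 genes in monolayers at 24 h over before NEE was -0.46, and -0.30 over 38 genes without monolayers before NEE replicate 1, against -0.01 and 0.02 for all genes tested.

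RNA sampled by NEE held little matrix RNA. The 41 genes summed to 591 to 837 CPM in the 3 NEE-sampled libraries, against 2906 to 7908 CPM in monolayer lysates. Collagens came to 30.6 to 55.0 CPM, laminins to 82.7 to 113 CPM and the other matrix proteins to 477 to 669 CPM. Between 26 and 31 of the 41 genes had at least 3 counts in an NEE-sampled library, against 35 to 38 in a monolayer lysate. In the fit of 17067 genes, 30 of 37 tested genes were called over monolayers of the 4 times, 29 lower and 1 higher; 48.6% of all genes were called and 26% called lower. The median log2 fold change was -3.17 for the 37 genes and -0.20 for all genes. All 7 tested laminins and 11 of 16 collagens were lower. The p-values and SEs of this fit, here and below, treat the 3 technical replicates as samples of a group. They do not measure the spread between separate samplings of cells.

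LOXL2 had 25.7, 22.4 and 18.6 CPM in the 3 NEE-sampled libraries, against 329, 511 and 834 CPM (lowest, median and highest) in monolayers. It did not overlap, and its log2 fold change was -4.22 (SE 0.23, edgeR adjusted p = 5.5e-07), with the smallest p of the set. LAMB2 had 12.5, 8.11 and 6.81 CPM in NEE-sampled RNA and 95.1, 117 and 148 CPM in monolayers (-3.38, edgeR adjusted p = 3.48e-06). COL5A2 had 15, 7.34 and 6.10 CPM in NEE-sampled RNA and 147, 186 and 502 CPM in monolayers (-4.13, edgeR adjusted p = 1.02e-05). In each of these genes the NEE-sampled libraries lay far below the lowest lysate. THBS1 had 14.9, 7.34 and 9.72 CPM in NEE-sampled RNA and 94.5, 109.7 and 183 CPM in monolayers (-3.16, edgeR adjusted p = 3.07e-06). LAMB1 had 51.7, 21.9 and 26.1 CPM in NEE-sampled RNA and 288, 370.1 and 526 CPM in monolayers (-3.18, edgeR adjusted p = 1.36e-05). COL4A5 had 1.61, 1.96 and 1.19 CPM in NEE-sampled RNA and 21.3, 50.4 and 82.3 CPM in monolayers (-4.62, edgeR adjusted p = 1.32e-05). Altogether 26 of the 41 genes had every NEE-sampled library below every monolayer library, as did 31.2% of the genes at 1 CPM or more in 2 libraries.

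LAMC1 had 17.4, 12.4 and 15 CPM in NEE-sampled RNA and 66.1, 91.4 and 119.6 CPM in monolayers (-2.27, edgeR adjusted p = 4.66e-05). HSPG2 was at 0, 0.419 and 0 CPM in NEE-sampled RNA, against 9.92 CPM or more in monolayers, and COL4A1 at 2.5, 0 and 0.972 CPM. Its partner COL4A2 had 4.77, 6.57 and 4.11 CPM, and its log2 fold change was -1.64 (SE 0.33, edgeR adjusted p = 0.0015), against -5.52 (SE 0.87, edgeR adjusted p = 0.000279) for COL4A1. TGFBI kept 476, 381 and 409.6 CPM in NEE-sampled RNA and was the most abundant of the set there per kilobase, at 54.0 CPM per kilobase; its log2 fold change was -1.25 (edgeR adjusted p = 0.0123). FN1 had 132, 60.8 and 46.7 CPM (-2.56, edgeR adjusted p = 0.00231) and LAMA5 21.1, 32.3 and 16.3 CPM (-1.10, edgeR adjusted p = 0.00843). LOXL1 was the gene called higher, with 0.881, 1.75 and 2.97 CPM in NEE-sampled RNA and 0 to 0.888 CPM in monolayers (3.16, SE 1.02, edgeR adjusted p = 0.0226); 9.21% of its exon bases overlap a gene on the other strand. COL1A1, COL18A1, COL4A3, COL4A4, COL17A1, FBN1 and LOX were tested and not called.

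Against monolayers before NEE alone, 29 matrix genes were called, all lower, when 38% of all genes were called and 22.5% called lower. That count was 25 without monolayers before NEE replicate 1, at 20.9% of all genes, and COL12A1, NID1, NID2 and SPARC lost their calls; the log2 fold change of NID1 was -0.74 without that library and -5.91 with it. Against monolayers right after NEE, 27 were called, all lower, at 34.8% and 20.6% of all genes (28 and 33.7% without that library). Without monolayers before NEE replicate 1, 30 were called over the 4 times, 29 of them lower, at 42.7% of all genes. With the technical replicates summed to 1 sample, which uses their spread no longer, 20 were called, at 26.3% of all genes, and among others COL4A2 (edgeR adjusted p = 0.0506), FN1 (0.0581), TGFBI (0.205), LAMA5 (0.12) and LOXL1 (0.0993) were not. The natural killer and T cell markers summed to 3.01 to 6.32 CPM in NEE-sampled RNA, against 28.0 to 763 CPM in monolayers, and the matrix genes have a median exon length of 9.28 kilobases, against 4.7 kilobases for genes at 1 CPM or more in 2 libraries. The part of either in the result was not tested.

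**Figure D4:**
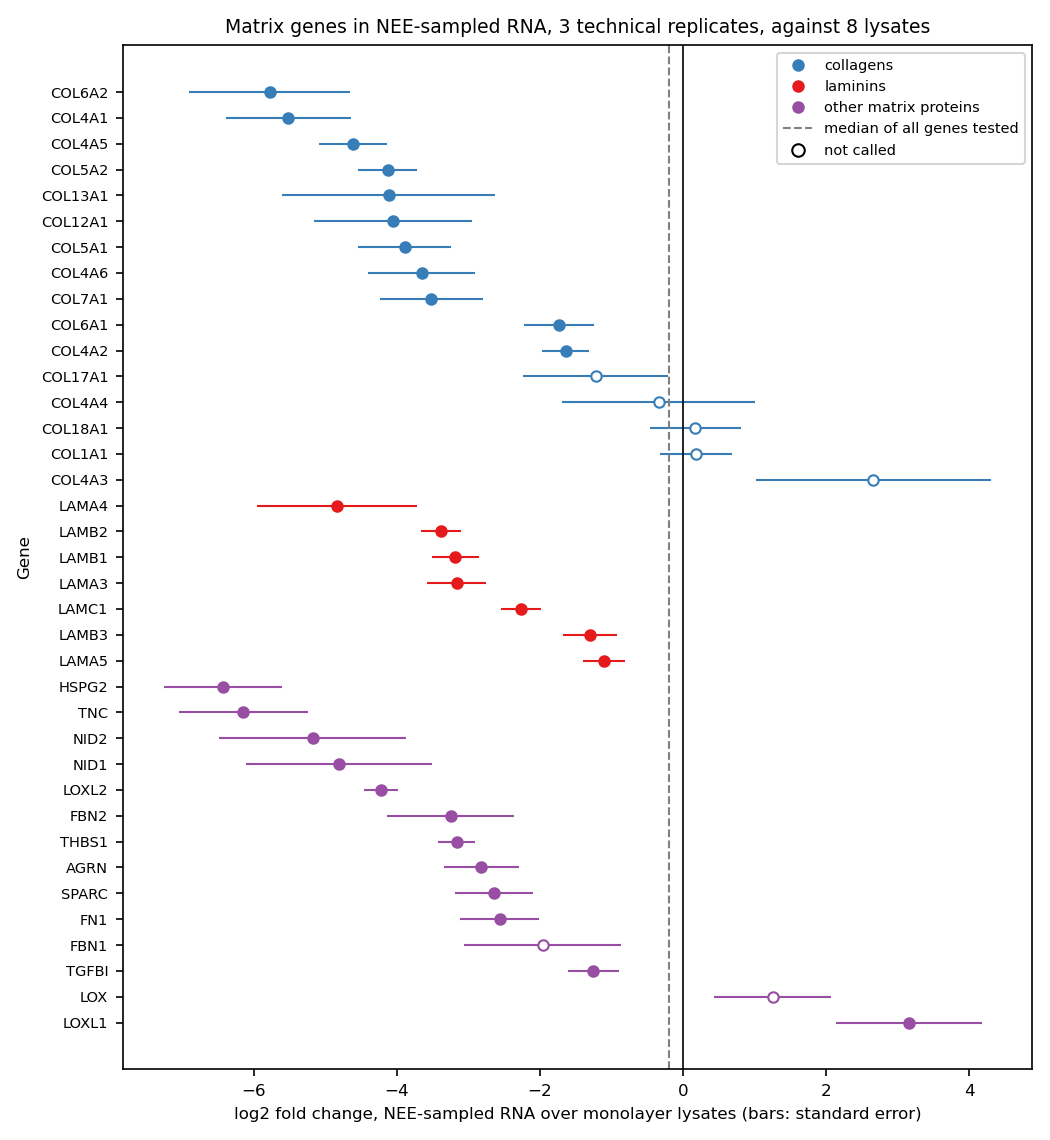
log2 fold change of the 37 tested matrix genes in NEE-sampled RNA (3 technical replicates) over monolayer lysates (8 libraries), with bars for the standard error, filled points for called genes and colours for collagens, laminins and other matrix proteins. The dashed line is the median of all genes tested, at -0.20, and 29 called genes lie to its left, with LOXL1 at 3.16 to its right.

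In the NEE-sampled RNA, of 28 collagen-processing genes 3 were higher and 12 lower, among them CRTAP at 1.33, P4HA2 at -2.27 and PLOD2 at -1.86 (log2 fold changes). Of 23 TGF-beta pathway genes 1 was higher and 11 lower, among them the ligand TGFB2 at -2.97 and the coreceptor TGFBR3 at -2.38. Of 12 receptors 1 was higher and 7 lower, with dystroglycan (DAG1) at -2.82, the hyaluronan receptor CD44 at -1.26 and RPSA, a laminin-binding protein that is also a ribosomal protein, at 3.04. Of all genes, 48.6% were called, 22.5% higher and 26% lower. The collagen-processing and TGF-beta counts stood near the share of all genes in total, but not by direction. Most of their called genes were lower. The medians of the 3 lists were -0.68, -0.58 and -1.19, against -0.20 for all genes.

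Spheroid libraries of replicate 1 held more matrix RNA than those of replicate 2. The labels give the replicate number as a batch and do not say what it stands for. The comparison was chosen after the values were seen. If the number marks a batch, each side is 1 batch. The p-values then measure the spread within batches and not between them. The 41 genes summed to 6977 to 7372 CPM in replicate 1 and to 3876 to 4860.2 CPM in replicate 2, and 7 of 37 tested genes were called over the 4 times, all higher in replicate 1, when 1.61% of all genes were called and 1.17% called higher. LOXL2 had 1343, 1157, 1222 and 1202 CPM in replicate 1 (before, right after, 2 h and 24 h after NEE), against 308, 348, 232 and 230.4 CPM in replicate 2. The sets lay far apart, and the log2 fold change was 2.18 (SE 0.15, edgeR adjusted p = 5.64e-05). LAMB3 had 283, 268, 239 and 208 CPM in replicate 1 and 70.6, 72.4, 54.1 and 77.6 CPM in replicate 2 (1.89, edgeR adjusted p = 0.000364). COL4A1 had 46.3, 52.1, 42.6 and 38.4 CPM in replicate 1 and 10.4, 14.5, 8.42 and 13.4 CPM in replicate 2 (1.99, edgeR adjusted p = 0.00758). TGFBI had 1261, 1231, 1428 and 1739.7 CPM in replicate 1 and 531, 466, 480 and 389 CPM in replicate 2 (1.62, edgeR adjusted p = 0.0354). In all 4 genes the replicates did not overlap at any time. The other calls were LAMA3 (1.64), COL5A1 (2.30) and SPARC (1.58), which are an epithelial laminin chain, a fibrillar collagen and a collagen-binding protein. LAMA3 had 29.8, 21.4, 26.5 and 29.2 CPM in replicate 1 and 17.3, 4.63, 7.3 and 9.33 CPM in replicate 2. COL5A1 had 16.3, 25.9, 27.3 and 40.5 CPM in replicate 1 and 7.88, 5.18, 6.67 and 2.9 CPM in replicate 2. SPARC had 45.5, 37.2, 31.3 and 26.3 CPM in replicate 1 and 15.1, 9.58, 8.05 and 15.8 CPM in replicate 2. None of these 3 overlapped, yet only the calls of LAMA3, LAMB3 and LOXL2, among the 7, held in every leave-one-out fit. In all, 12 of 41 genes had every replicate 1 library above every replicate 2 library, as did 4.76% of the genes at 1 CPM or more in 2 libraries.

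In monolayers the same comparison called 3 of 37 genes, at 1.28% of all genes: FN1 lower in replicate 1 (-1.40, SE 0.16, edgeR adjusted p = 0.00199), NID2 higher (2.49) and LAMC1 higher (0.63). FN1 had 352, 421, 283 and 270.1 CPM in monolayers of replicate 1 and 725, 829.7, 885 and 962 CPM in those of replicate 2. Every replicate 1 monolayer lay below, and that call held in every leave-one-out fit. NID2, a nidogen, had 28.9, 8.14, 12.5 and 14.9 CPM in replicate 1 and 4.2, 2.18, 3.32 and 1.3 CPM in replicate 2; 29.96% of its exon bases overlap a gene on the other strand. LAMC1 had 106, 111, 119.6 and 109 CPM in replicate 1 and 66.1, 70.2, 77.0 and 69.9 CPM in replicate 2, but its call was lost in every leave-one-out fit. In monolayers, 4 of 41 genes had every replicate 1 library above every replicate 2 library (COL4A1, LAMA3, LAMC1 and NID2). Another 4 had every one below (COL17A1, LAMA4, FN1 and TNC). The shares were 4.48% and 4.91% of the genes at 1 CPM or more in 2 libraries. COL4A1 was not called there (1.12, edgeR adjusted p = 0.125). When monolayers before NEE replicate 1 were left out, FN1 was the 1 matrix gene called there, at 0.447% of all genes, and NID2 had an adjusted p of 0.0689 by edgeR. Tested directly, the log2 difference of replicate 1 over replicate 2 was more positive in spheroids than in monolayers for LAMB3 (2.35, edgeR adjusted p = 0.00138), LOXL2 (1.88, edgeR adjusted p = 0.00152) and FN1 (1.79, edgeR adjusted p = 0.00368), when 0.46% of all genes were called. The myeloid markers summed to 63.2 to 97.9 CPM in spheroids of replicate 1 and 33.0 to 58.2 CPM in those of replicate 2, and the epithelial markers to 12923 to 15217 CPM and 16718 to 18649 CPM; their part was not tested. Among the pathway genes, TGFB2 (log2 fold change 1.41), P4HA2 (0.81) and PLOD2 (0.92) were also higher in spheroids of replicate 1.

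**Figure D5:**
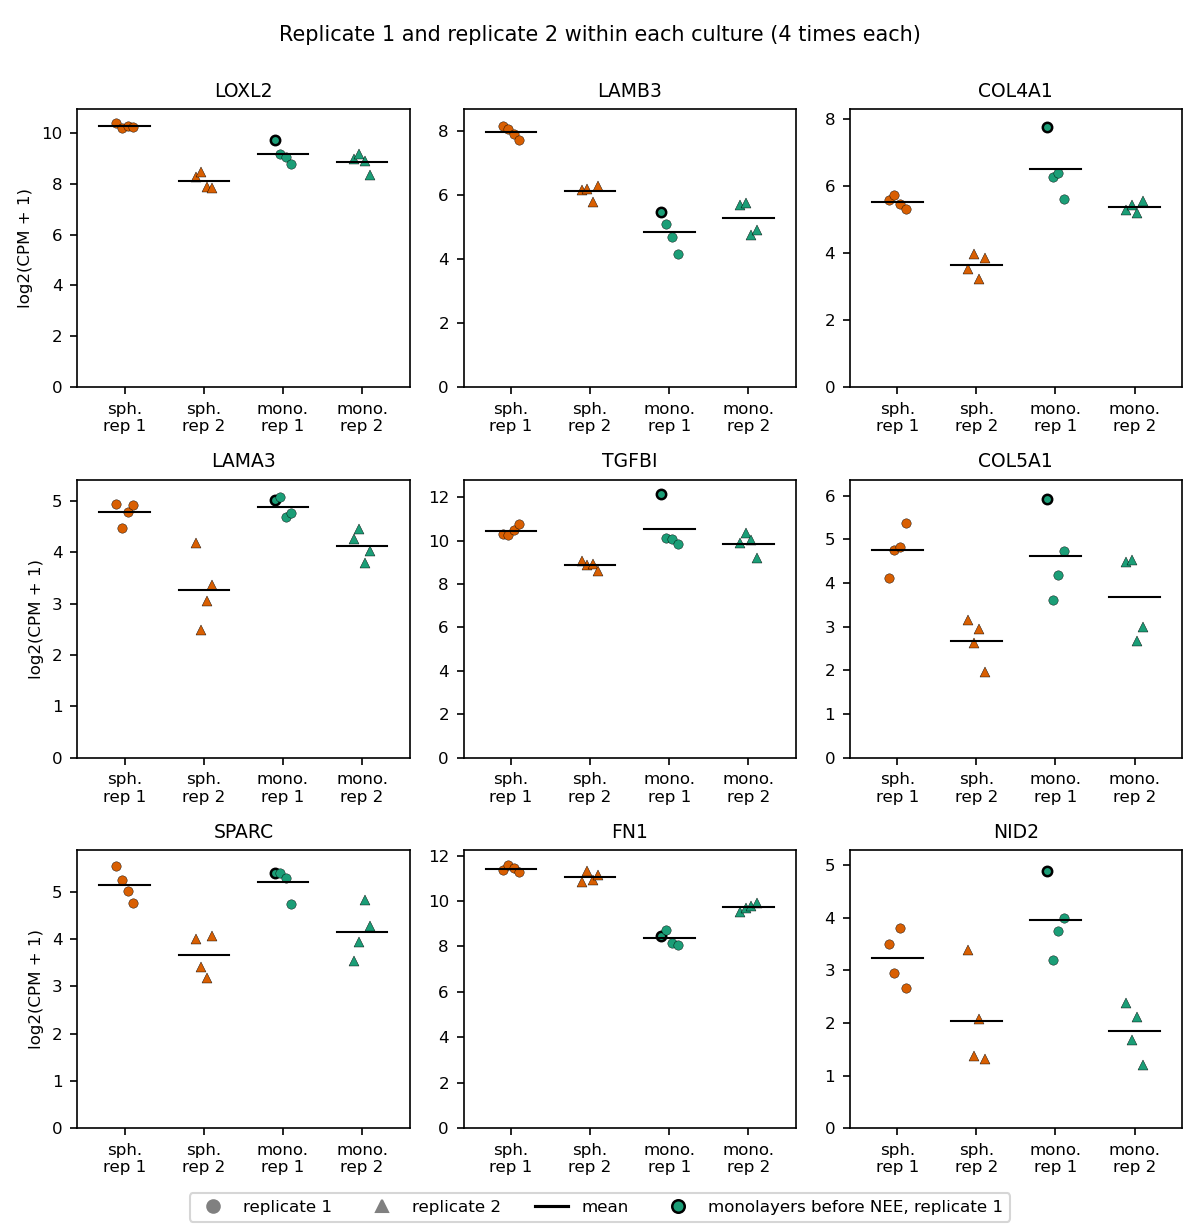
log2(CPM + 1) of 9 matrix genes called between replicates, in spheroids of replicate 1 and 2 and monolayers of replicate 1 and 2, with 1 point for each of the 4 times and the mean as a line. LOXL2 in spheroids stays at 1157 to 1343 CPM in replicate 1 and at 230.4 to 348 CPM in replicate 2, and FN1 separates by replicate in monolayers.

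Monolayers before NEE replicate 1 had the highest value of all 16 lysates in 10 of the 41 genes, as in 19.8% of the genes at 1 CPM or more in 2 lysates. TGFBI had 4528 CPM there, against 389 to 1739.7 CPM in the other lysates, COL5A2 502 CPM against 114 to 216 CPM, and COL4A1 213 CPM against 8.42 to 82.2 CPM. COL1A1, COL5A1, COL6A3, COL12A1, LAMB1, NID1 and NID2 were the other genes. LAMB2 was the only one with its lowest value there, at 95.1 CPM, against 104 to 344 CPM.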

How the data were processed

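Per the submitters' processing notes, HISAT2 and featureCounts on GRCh38 gave the counts after FastQC and Trimmomatic. Tool versions, annotation and strand setting: not given in the sources used here. The authors deposited whole-number read counts per gene, with no normalization, and the counts were used as deposited. CPM divides a count by the library's total; CPM per kilobase also divides by the exon length of GENCODE release 29. Tests used edgeR 4.0.16 in R 4.3.3 (TMM scaling, filterByExpr with a minimum count of 10, robust quasi-likelihood, Benjamini-Hochberg over all genes tested, adjusted p under 0.05), in 1 fit of the 16 lysates in 8 groups (17822 genes, 8 residual degrees of freedom) and 1 of the 3 NEE-sampled and 8 monolayer libraries (17067 genes, 6 residual degrees of freedom). The comparisons of replicate 1 with replicate 2 came from a further fit of the 16 lysates, with a replicate block within each culture. That fit had 17822 genes and 6 residual degrees of freedom. A log2 fold change is relative to the TMM scaling. Alternatives were DESeq2 1.42.0, RLE and upper-quartile scaling, other filters on low counts, a replicate block, summed technical replicates and leaving out each library. The fits were tested on simulated data. Python 3.11.15, pandas 2.3.3, numpy 2.4.6 and matplotlib 3.10.9 were used for values and figures. Promoters come from RefSeq (GRCh38.p14).

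The labels give the replicate number as a batch, which was taken to pair the lysates. The main tests between cultures and between times used group means only and not this pairing. For them, the replicate block was an alternative. Over 10084 genes, 19 of 28 pairs of groups had deviations that correlated above 0.1 between equal numbers (-0.277 to 0.498, median 0.214). No 2 libraries agreed within sampling noise. Members and lists were chosen with earlier results of these data known. Values are given for the called genes with the smallest p (up to 8 a comparison), otherwise for the 3 with the smallest p at 5 CPM or more, the 2 highest per kilobase in each class, and both genes of each type IV pair; of the pathway lists, up to 3 called genes each.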

Additional observations from a re-analysis of the deposited data

Results flagged for a closer look

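Over the 8 monolayer libraries, 6 matrix genes had a value in monolayers before NEE replicate 1 that lay far from the other 7: 28.4 CPM for COL1A1, 213 CPM for COL4A1, 59.9 CPM for COL5A1, 502 CPM for COL5A2, 40.1 CPM for NID1 and 4528 CPM for TGFBI. FBN1 had such a value in monolayers before NEE replicate 2, at 18.3 CPM. These are 7 of 54 sets of a gene and a culture examined by Dixon's criterion. Its chance rate of about 1 in 20 holds for normal values of 1 group and for independent sets. These sets pooled CPM over the times, and 6 of the 7 flags come from 1 library, so no excess over chance was measured. The same library holds the 763 CPM of natural killer and T cell markers, whose part in these values was not tested.

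The log2 difference of replicate 1 over replicate 2 was more positive in spheroids than in monolayers, by a test of the difference itself, for LAMB3 (2.35), FN1 (1.79) and LOXL2 (1.88). What the replicate number stands for is not given in the sources used here. If it marks a batch, the test does not measure the spread between batches.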

How the results depend on the processing

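No called matrix gene changed direction under any alternative that was fitted; genes that passed no test did, among them 7 between cultures over the 4 times without monolayers before NEE replicate 1. Counts of called genes that moved by more than 1.5 times were as follows, and the cause was not tested unless stated. The share of all genes called under each alternative is not given in this section. A higher or lower count therefore cannot be read as particular to the matrix genes. With no filter on low counts, the calls were 16 between cultures over the 4 times, 16 over the 3 times after NEE and 10 before NEE, 1, 2 and 1 in monolayers right after, 2 h and 24 h after NEE over before, 1 for the difference between cultures at 24 h, and 14, 9 and 7 for replicate 1 over replicate 2 in spheroids, in monolayers and for their difference. With DESeq2 they were 10 over the 3 times after NEE, 6 before NEE, and 5 and 5 for the replicates in monolayers and their difference. With RLE scaling 1 gene was called before NEE. Leaving out 1 library at a time gave 6 to 9 calls over the 4 times, 5 to 8 over the 3 times after NEE, 0 to 4 before NEE, 27 to 30 in NEE-sampled RNA over the 4 times, 25 to 29 over before NEE, 21 to 28 over right after NEE, 3 to 7 for the replicates in spheroids, 1 to 3 in monolayers and 3 to 4 for their difference. A replicate block gave 11 calls over the 4 times, and a block within each culture, chosen after seeing the data, gave 12 over the 4 times, 10 over the 3 times after NEE and 8 before NEE; neither changed a comparison of times. No paired analysis was possible because the NEE-sampled numbers count technical repeats, for the comparison with NEE-sampled RNA. The upper-quartile scaling moved the median log2 fold change of all genes in NEE-sampled RNA over the 4 times to -0.04. Precision is limited by 2 libraries in a group: single times rest on them, and genes under about 1 CPM on a few counts.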
